A study of Mus musculus with 9 samples.

Results

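The genes described here encode the machinery that copies DNA in S phase, and they were followed in 4T1, a line of BALB/c mouse cells from a mammary carcinoma. They are 44 genes chosen by name for their known function, with earlier results of these data known, out of 55416 gene IDs in the count tables. All 44 symbols were matched to an ID, and all 44 passed the filter on low counts that left 13439 genes to test. The study compared 3 groups of 4T1 cells with 3 libraries each. MRC+L cells had MRC nanoparticles for 12 h and 3 min of light at 660 nm, with 180 mW per square centimetre in one label field and mV in another. MRC cells were kept for 12 h with the same nanoparticles and no light, and PBS cells were kept in medium alone. The labels do not spell out MRC, and there was no group with light and no particles. No label says that the 3 libraries of a group came from separate cultures, so the p-values cover no more than the spread among these samples, and that spread may be technical.

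Replication begins when the origin recognition complex, Cdc6 and Cdt1 load the ring-shaped MCM helicase on chromatin in G1, a step called licensing. At the start of S phase the ring is joined by Cdc45 and the GINS complex, and polymerases, the sliding clamp PCNA and its loader RFC then build the new strands from deoxynucleotides supplied by ribonucleotide reductase, thymidylate synthase and thymidine kinase. Many of these genes are transcribed at the G1/S border by E2F factors, which cyclin E with its kinase helps to release from the retinoblastoma protein, so their transcripts are widely read as a mark of proliferating cells.

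The libraries held 15019765 to 20044166 counts and detected 18999 to 20514 genes. Levels are CPM, the count divided by the library total and scaled by TMM factors, and differences are log2 fold changes with their standard error. The biological coefficient of variation was 0.0580 in MRC+L, 0.0807 in MRC and 0.280 in PBS. PBS replicate 2 stood apart. Its shortest genes were high relative to its longest by 0.92 on the log2 scale (the mean over the shortest 10% of genes minus that over the longest 10%), where the other 8 libraries lay between -0.25 and 0.08. Of the epithelial markers, Krt8 had 306 to 317 CPM in MRC+L, 333 to 369.6 CPM in MRC and 565 to 905 CPM in PBS, and Krt14 went the other way at a low level, with 1.40 to 1.47 CPM in MRC+L, 1.63 to 1.96 CPM in MRC and 0.104 to 0.412 CPM in PBS, while Epcam was at or near 0. The summed level of the 6 epithelial markers was 558 to 571 CPM in MRC+L, 634 to 666 CPM in MRC and 1055 to 1876 CPM in PBS, so it was lower in the same groups as the replication genes, with Krt8 and Krt18 making up most of it. Krt8 and Krt18 were called lower in both groups. Krt7 and the low Cdh1 (1.95 to 5.17 CPM over all libraries) were called lower in MRC+L and not called in MRC. The 5 leukocyte markers summed to 17.8 to 20.1 CPM in MRC+L, 16.8 to 22.8 CPM in MRC and 7.16 to 12.2 CPM in PBS. Nearly all of this was Cd68, which was called higher in both (log2 fold change 1.00 for MRC+L and 1.04 for MRC), while Ptprc, Cd3e and Itgam were at or near 0. The 4 endothelial and fibroblast markers summed to 75.2 to 86.6 CPM in MRC+L, 79.3 to 96.0 CPM in MRC and 45.4 to 81.7 CPM in PBS, with Pdgfra and the low Pecam1 (under 1 CPM) called higher and Pdgfrb lower in both groups. The part of these markers in the results below was not tested.

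Most replication genes were lower after MRC nanoparticles, with or without light. In MRC+L cells 35 of the 44 fell relative to PBS and 2 rose, where 24.5% of all tested genes fell and 21.8% rose (edgeR quasi-likelihood test, adjusted p under 0.05). In MRC cells 29 fell and 1 rose, where 19.8% of all tested genes fell and 17.8% rose. The median log2 fold change of the 44 genes was -0.67 for MRC+L against PBS and -0.55 for MRC against PBS, beside a median of -0.03 over all tested genes in each comparison. The summed level of the 44 genes was 3728, 3889 and 3913 CPM in the MRC+L libraries, 4068, 4277 and 4188 CPM in the MRC libraries, and 6348, 6586 and 5940.1 CPM in the PBS libraries. No library of either nanoparticle group reached the lowest PBS library. In these bulk samples, fewer cells in S phase and less of these transcripts per cell cannot be told apart.

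All 3 MRC+L libraries lay below all 3 PBS libraries for 36 of the 44 genes and above them for 2, where 28.1% and 28.2% of all tested genes did so. All 3 MRC libraries lay below all 3 PBS libraries for 31 genes and above them for 2, against 24.2% and 24.1% of all tested genes. The size of the change was mostly under 2-fold. In MRC+L cells 9 of the called genes were at least 2-fold lower (10.4% of all tested genes), and in MRC cells 4 were (8.14% of all tested genes), namely Tk1, Gins2, Rfc2 and Uhrf1. Without PBS replicate 2, Rfc2 in MRC was at -0.92 on the log2 scale, which is under 2-fold. Without PBS replicate 2 the counts were 36 lower and 2 higher for MRC+L, and 31 lower and 2 higher for MRC. More of all tested genes were called there too, in either direction, with 7659 of 13747 for MRC+L and 6962 of 13747 for MRC. With all libraries these were 6212 and 5050 of 13439. The 2 comparisons share the PBS libraries, so their calls are not separate results. In both of them 29 genes were called lower and Gins3 was called higher. A log2 fold change below 0 was seen for 39 of the 44 genes in each comparison, against 51.8% of all tested genes in each.

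**Figure D1:**
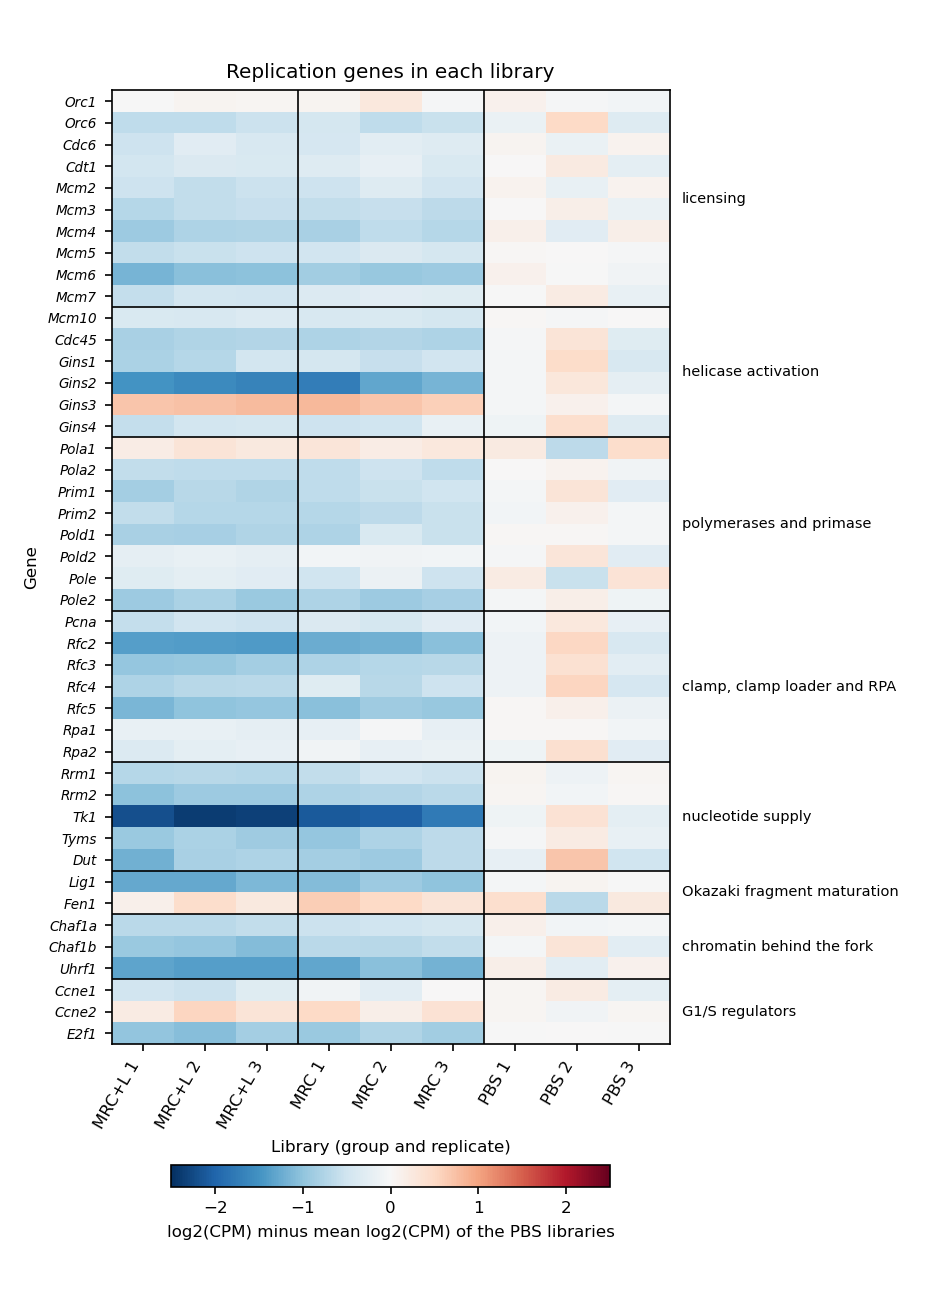
Level of each of the 44 replication genes (rows, grouped by role) in each of the 9 libraries (columns), as log2 CPM minus the mean log2 CPM of the 3 PBS libraries, with blue for lower and red for higher. The 6 nanoparticle libraries are all blue for 38 genes and all red for Gins3, Ccne2, Pola1 and Fen1, of which the last 2 were called in neither comparison, while PBS replicate 2 differs from the other PBS libraries in both directions.

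The plot of single libraries shows the common direction across roles, and the plot of fold changes against PBS gives its size gene by gene.

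**Figure D2:**
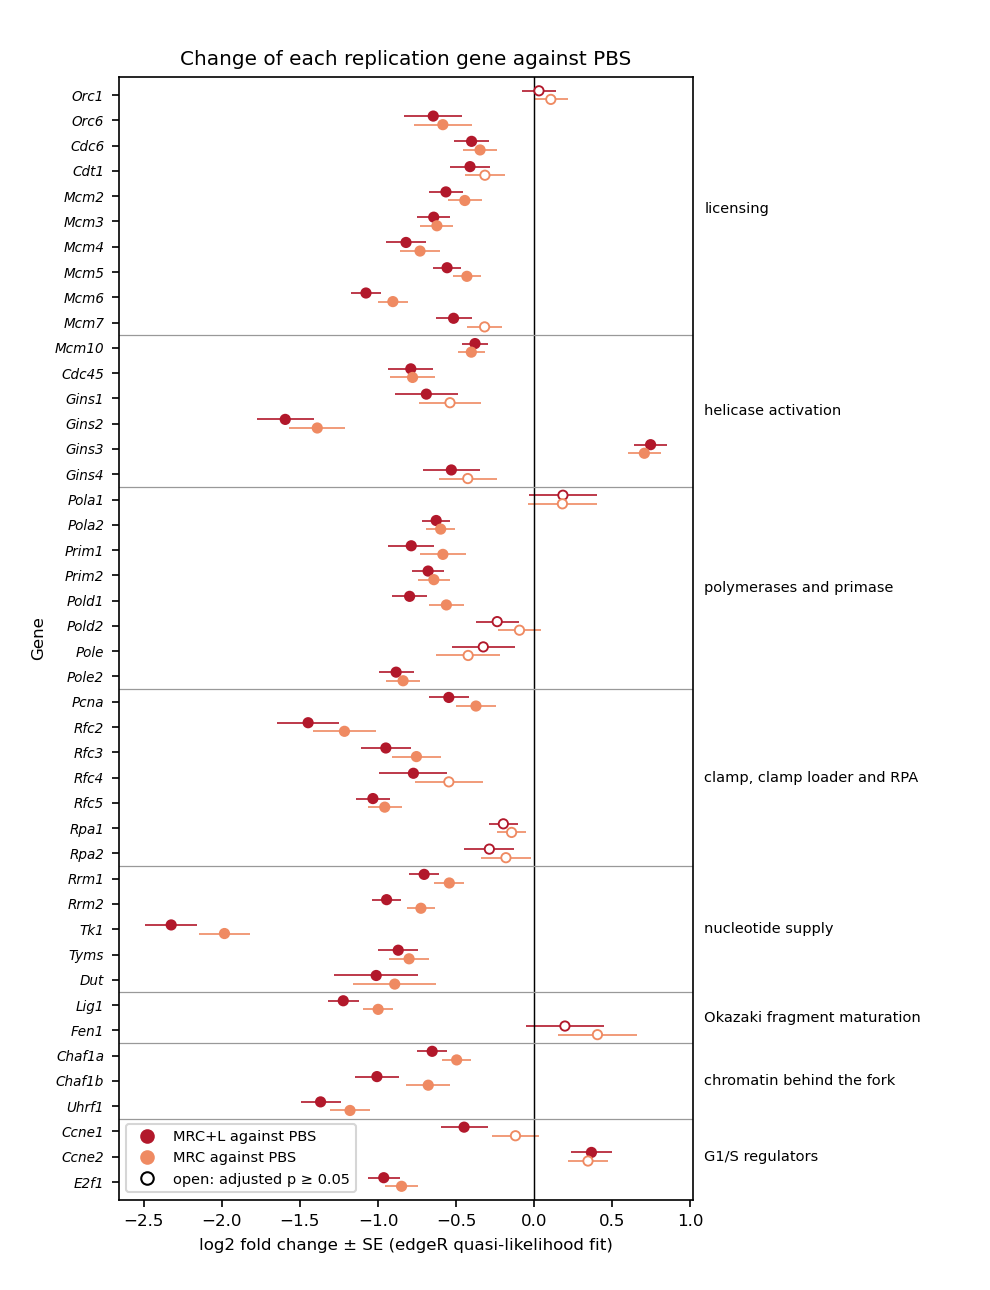
Log2 fold change against PBS for each of the 44 genes (rows, grouped by role), with the standard error derived from the edgeR test, for MRC+L (dark red) and MRC (orange). Filled points have an adjusted p under 0.05. Tk1 lies farthest to the left at -2.32 for MRC+L and -1.98 for MRC, and Gins3 farthest to the right at 0.74 and 0.70.

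The promoters of these genes are shown because the members moved together and several are textbook targets of E2F. Windows of 300 bases around the transcription start were taken from RefSeq (build GRCm38.p6, while the counts are on GRCm39) and were at hand for 36 of the 44 genes. No window was listed for Mcm4, Gins1, Gins2, Gins4, Prim2, Pole, Rfc2 and Ccne2. Each window was searched on both strands for the E2F words TTTCCCGC, TTTCGCGC, TTTGCCGC and TTTGGCGC, which can overlap each other. At least 1 word stood at 14 of the 36 genes (38.9%), compared with 2.61% of all 27025 genes with a window and 4.71% of the other tested genes. Those 14 genes were Orc1, Cdc6, Cdt1, Mcm3, Mcm5, Mcm6, Mcm7, Gins3, Pola1, Pold1, Pole2, Rfc3, Lig1 and Uhrf1. The word CCAAT stood at 21 of the 36 (58.3%), against 41.1% of all genes with a window. A few genes have several listed starts, and for these the window with a word is given. The windows are written 5′ to 3′ along the gene, with the E2F words in capitals.
Mcm6, chr1:128359656-128359955, minus strand: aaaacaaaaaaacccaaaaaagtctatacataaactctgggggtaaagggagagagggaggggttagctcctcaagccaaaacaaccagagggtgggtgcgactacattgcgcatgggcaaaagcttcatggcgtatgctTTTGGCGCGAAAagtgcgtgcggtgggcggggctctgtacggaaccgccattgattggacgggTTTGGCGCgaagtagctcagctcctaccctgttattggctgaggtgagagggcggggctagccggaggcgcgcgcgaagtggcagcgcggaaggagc
Uhrf1, chr17:56304063-56304362, plus strand: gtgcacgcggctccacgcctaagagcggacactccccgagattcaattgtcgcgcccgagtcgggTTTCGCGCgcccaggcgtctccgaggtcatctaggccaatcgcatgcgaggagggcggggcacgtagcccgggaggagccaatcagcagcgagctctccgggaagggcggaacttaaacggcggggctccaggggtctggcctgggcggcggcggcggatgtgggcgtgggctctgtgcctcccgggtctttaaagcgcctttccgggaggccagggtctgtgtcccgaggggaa
Lig1, chr7:13278576-13278875, plus strand: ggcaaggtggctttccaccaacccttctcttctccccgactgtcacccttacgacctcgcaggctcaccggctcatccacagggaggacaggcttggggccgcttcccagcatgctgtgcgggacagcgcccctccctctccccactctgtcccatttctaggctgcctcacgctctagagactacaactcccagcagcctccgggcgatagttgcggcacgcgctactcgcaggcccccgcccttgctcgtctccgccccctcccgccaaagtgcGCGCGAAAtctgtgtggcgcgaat
Rfc3, chr5:151651159-151651458, minus strand: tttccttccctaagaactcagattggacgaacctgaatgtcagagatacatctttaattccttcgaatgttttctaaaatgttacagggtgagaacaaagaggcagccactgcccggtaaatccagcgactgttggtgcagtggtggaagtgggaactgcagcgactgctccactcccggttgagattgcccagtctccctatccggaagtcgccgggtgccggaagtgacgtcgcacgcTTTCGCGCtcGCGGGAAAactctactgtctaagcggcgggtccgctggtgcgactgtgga
Gins3, chr8:95633309-95633608, plus strand: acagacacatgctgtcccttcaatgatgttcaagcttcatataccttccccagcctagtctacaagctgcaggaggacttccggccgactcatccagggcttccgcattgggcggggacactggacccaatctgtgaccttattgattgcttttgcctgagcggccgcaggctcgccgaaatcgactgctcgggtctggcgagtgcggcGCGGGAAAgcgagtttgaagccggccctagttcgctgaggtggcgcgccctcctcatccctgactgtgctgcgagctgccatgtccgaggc
Orc1, chr4:108579204-108579503, plus strand: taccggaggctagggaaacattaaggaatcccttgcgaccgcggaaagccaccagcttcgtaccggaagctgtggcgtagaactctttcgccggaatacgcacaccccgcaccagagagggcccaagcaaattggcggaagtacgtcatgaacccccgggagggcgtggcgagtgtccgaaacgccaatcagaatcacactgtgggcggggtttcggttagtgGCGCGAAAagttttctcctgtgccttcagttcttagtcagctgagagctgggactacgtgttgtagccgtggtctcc
Tk1, chr11:117825965-117826264, minus strand: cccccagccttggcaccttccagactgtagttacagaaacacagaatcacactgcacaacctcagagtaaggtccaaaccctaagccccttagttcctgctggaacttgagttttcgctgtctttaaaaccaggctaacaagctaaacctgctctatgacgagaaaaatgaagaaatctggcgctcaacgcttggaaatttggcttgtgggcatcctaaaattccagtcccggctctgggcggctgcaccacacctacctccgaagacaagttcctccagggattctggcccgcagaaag
The first 4 belong to genes that were lower in both nanoparticle groups, and the Mcm6 window holds 3 words, of which a pair overlaps. Gins3, the gene that was higher in both groups, and Orc1, which was called in neither, carry a word too. The window of Tk1, the gene with the largest fall, holds none of these letters. Of the 14 genes with a word, 11 were lower and 1 was higher in MRC+L cells (median log2 fold change -0.60), and of the 22 without one 18 were lower (median -0.68). In MRC cells 9 of the 14 were lower and 1 higher (median -0.50), and 16 of the 22 without a word were lower (median -0.57). Which genes count as without a word depends on the starts listed and on an exact match of the letters. Lig1, Mcm7 and Uhrf1 each have a listed window with a word and another without. Whether each window lies at the start in use in these cells was not tested. A match to these letters is a description of the sequence and was not tested as a site of binding.

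The licensing genes comprise Orc1 and Orc6, subunits of the origin recognition complex, the loading factors Cdc6 and Cdt1, and the 6 subunits of the MCM ring. In MRC+L cells 9 of these 10 fell and 1 was not called, and in MRC cells 7 fell and 3 were not called. Mcm6 (GRCm39 chr1:128259327-128287401) moved most among them. Its level was 207, 225 and 228 CPM in the MRC+L libraries, 253, 242 and 248 CPM in the MRC libraries and 496, 460.2 and 436 CPM in the PBS libraries. Both nanoparticle groups lay far below PBS, and the 3 MRC+L libraries also lay below the 3 MRC libraries. The log2 fold change was -1.08 ± 0.10 for MRC+L (adjusted p = 2.32e-05) and -0.91 ± 0.10 for MRC (adjusted p = 9.15e-05).

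The other ring subunits fell less. Mcm4 (chr16:15441761-15455264) had 139, 152 and 156 CPM in MRC+L, 149, 169 and 159 CPM in MRC and 286, 216 and 289 CPM in PBS, with log2 fold changes of -0.82 ± 0.13 for MRC+L and -0.73 ± 0.13 for MRC. Mcm3 (chr1:20873192-20890536) had 262, 279.7 and 287 CPM in MRC+L, 280.1, 287 and 273 CPM in MRC and 433, 476 and 386 CPM in PBS, with log2 fold changes of -0.64 ± 0.11 for MRC+L and -0.62 ± 0.11 for MRC. For both genes the nanoparticle libraries lay below every PBS library, and MRC+L overlapped MRC. Mcm2 (chr6:88860456-88875762) had 154, 143 and 151 CPM in MRC+L, 153, 176 and 159 CPM in MRC and 235, 195 and 234 CPM in PBS, and its log2 fold changes were -0.57 ± 0.11 for MRC+L and -0.44 ± 0.11 for MRC. Mcm5 (chr8:75836197-75855067) had 194, 202 and 207 CPM in MRC+L, 211, 229.9 and 217 CPM in MRC and 300.02, 297 and 291 CPM in PBS, with log2 fold changes of -0.56 ± 0.09 for MRC+L and -0.43 ± 0.09 for MRC. All 4 genes passed the test in both comparisons, with adjusted p between 0.000658 and 0.00965, and only Mcm2 in MRC lost its call when 1 library was left out (adjusted p = 0.0507 without MRC replicate 1).

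Mcm7 (chr5:138162845-138170684) was the ring subunit with the smallest change. It had 201, 223 and 219.7 CPM in MRC+L, 241, 252 and 246 CPM in MRC and 303, 350.3 and 269 CPM in PBS. The 3 groups did not overlap, with MRC+L lowest and PBS highest. Against PBS the log2 fold change was -0.52 ± 0.11 for MRC+L (adjusted p = 0.00476), while that for MRC was -0.32 ± 0.11 and missed the threshold (adjusted p = 0.0516), which it passed without PBS replicate 2 or without PBS replicate 3. Per kilobase of exon the 6 ring subunits, which form a complex with 1 copy each, did not have equal values. The length used covers all annotated exon bases of a gene (6956 for Mcm2 and 3752 for Mcm3), not the transcript in use. Whether the order depends on this length was not tested. Mcm3 was highest, at 73.6 CPM per kilobase in MRC+L, 74.7 in MRC and 115 in PBS, and Mcm2 was lowest, at 21.5 CPM per kilobase in MRC+L, 23.3 in MRC and 31.8 in PBS.

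Among the loading factors Cdc6, the ATPase that works with the origin recognition complex, averaged 56.1 ± 4.61 CPM in MRC+L, 58.3 ± 3.15 CPM in MRC and 74.1 ± 7.12 CPM in PBS (SD, n = 3 each), a log2 fold change of -0.40 ± 0.11 for MRC+L and -0.35 ± 0.11 for MRC. Cdt1, its partner in loading the ring, averaged 127 ± 4.96 CPM in MRC+L, 135 ± 8.47 CPM in MRC and 168 ± 27.2 CPM in PBS, and it was called for MRC+L (-0.41 ± 0.13, adjusted p = 0.0223) and not for MRC (-0.32 ± 0.13, adjusted p = 0.0715). Both changes were small. Orc6 averaged 58.6 ± 2.36 CPM in MRC+L, 61.1 ± 4.01 CPM in MRC and 91.7 ± 29.3 CPM in PBS, with log2 fold changes of -0.65 ± 0.19 for MRC+L and -0.59 ± 0.19 for MRC, and its PBS spread came from replicate 2, without which they were -0.36 for MRC+L and -0.30 for MRC. Orc1 averaged 38.9 ± 0.884 CPM in MRC+L, 41.1 ± 4.42 CPM in MRC and 38.1 ± 2.48 CPM in PBS, and its groups overlapped. These calls were weak. For MRC against PBS, Orc6 lost its call without any single MRC or MRC+L library (adjusted p from 0.00503 to 0.108 over the single omissions), and Cdc6 without PBS replicate 1 or 3, any MRC library or MRC+L replicate 3. For MRC+L against PBS, Orc6 lost its call without MRC+L replicate 1 or 2, Cdc6 without PBS replicate 1 or MRC+L replicate 1, and Cdt1 without PBS replicate 1 or any MRC+L library, while Cdt1 gained a call in MRC without PBS replicate 3.

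Helicase activation requires Mcm10, Cdc45 and the 4 GINS subunits, and the GINS genes split in direction. In MRC+L cells 5 of these 6 genes fell and Gins3 rose, and in MRC cells 3 fell, Gins3 rose and 2 were not called. Gins3 (chr8:96360081-96371688) had 41.2, 42.3 and 43.9 CPM in MRC+L, 44.6, 41.2 and 38.2 CPM in MRC and 24.4, 27.1 and 24.5 CPM in PBS. All 6 nanoparticle libraries lay above all 3 PBS libraries, and MRC+L and MRC overlapped. Relative to PBS, the log2 fold change was 0.74 ± 0.10 for MRC+L (adjusted p = 0.000329) and 0.70 ± 0.10 for MRC (adjusted p = 0.00058).

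Gins2 (chr8:121305372-121316043) went the other way. It had 10.9, 10.2 and 9.64 CPM in MRC+L, 9.25, 12.4 and 13.8 CPM in MRC and 29.5, 37.4 and 26.1 CPM in PBS, with no nanoparticle library reaching the PBS range. Its log2 fold change was -1.59 ± 0.18 for MRC+L (adjusted p = 8.94e-05) and -1.39 ± 0.18 for MRC (adjusted p = 0.000261). The exons of Gins2 share 67.3% of their bases with Gse1 on the other strand, and counting used no strand option, so its reads cannot be told apart from those of Gse1 there. Gins1 averaged 14.8 ± 1.79 CPM in MRC+L, 16.5 ± 0.775 CPM in MRC and 23.9 ± 7.27 CPM in PBS, and Gins4 averaged 28.5 ± 1.68 CPM in MRC+L, 30.6 ± 4.08 CPM in MRC and 41.2 ± 11.4 CPM in PBS. Both were called lower for MRC+L (-0.69 ± 0.20 and -0.53 ± 0.18) and neither for MRC (-0.54 ± 0.20 and -0.43 ± 0.18). Gins1 lost its MRC+L call without MRC+L replicate 1 or 2, and Gins4 without PBS replicate 1, MRC replicate 1 or 2, or any MRC+L library. PBS replicate 2 was high for both genes. Without it the log2 fold change of Gins1 was -0.44 for MRC+L and -0.29 for MRC, and that of Gins4 was -0.29 for MRC+L and -0.19 for MRC, while without PBS replicate 3 both were called lower for MRC as well.

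Cdc45, which travels with the ring as part of the active helicase, averaged 49.2 ± 1.48 CPM in MRC+L, 49.6 ± 0.838 CPM in MRC and 85.1 ± 18.7 CPM in PBS, and fell in both groups (log2 fold change -0.79 ± 0.14 for MRC+L and -0.78 ± 0.14 for MRC). Mcm10, which helps to start unwinding, averaged 112 ± 2.25 CPM in MRC+L, 109.9 ± 2.47 CPM in MRC and 145 ± 2.51 CPM in PBS. Its fall was small, at -0.38 ± 0.08 for MRC+L and -0.40 ± 0.08 for MRC, and with no filter on low counts both calls were lost (adjusted p = 0.0524 for MRC+L and 0.0608 for MRC).

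**Figure D3:**
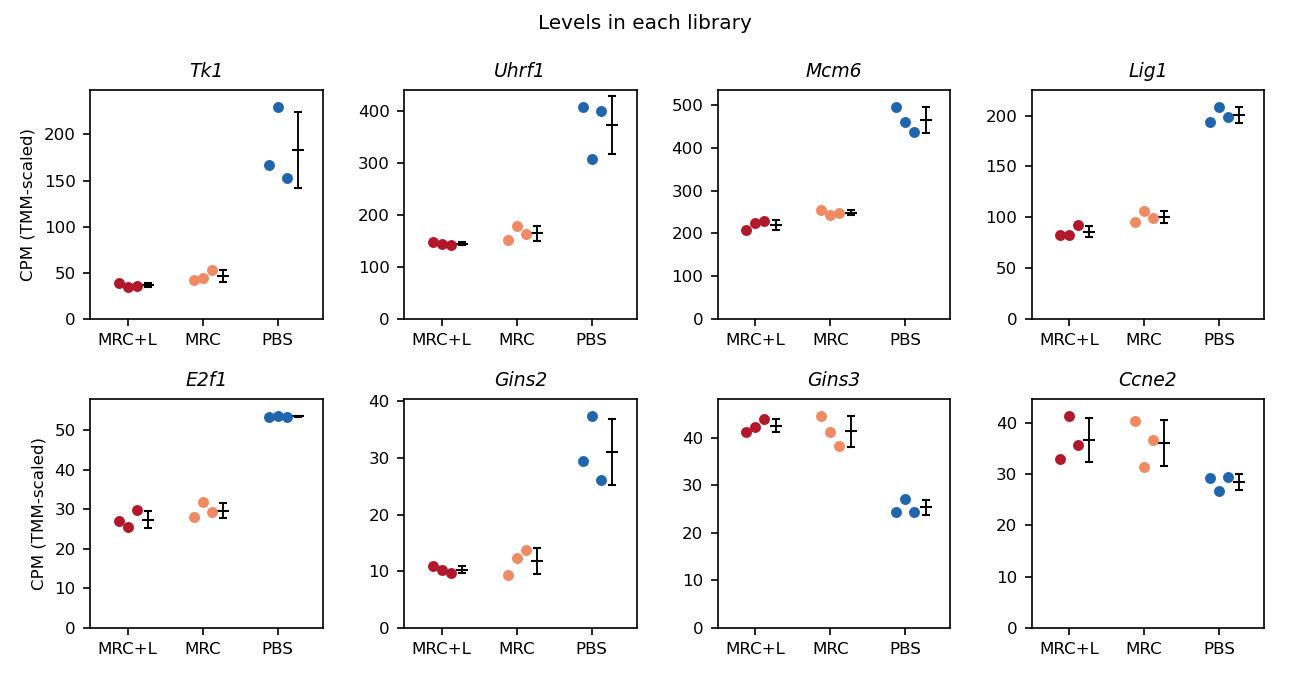
CPM in each library (points) for 8 replication genes, with the mean and SD of each group beside its points (n = 3 each) and each vertical axis starting at 0. MRC+L and MRC lie below PBS without overlap for Tk1, Uhrf1, Mcm6, Lig1, E2f1 and Gins2, and above it for Gins3 and Ccne2.

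The polymerase and primase genes were divided. Pola2, Prim1 and Prim2 of the polymerase alpha-primase that lays primers, Pold1, the catalytic subunit of the lagging-strand polymerase delta, and Pole2, a subunit of the leading-strand polymerase epsilon, fell in both groups. Pola1, Pold2 and Pole were called in neither. Pole2 (chr12:69248547-69274969) had 19.9, 21.6 and 19.6 CPM in MRC+L, 22.1, 19.9 and 21.0 CPM in MRC and 36.4, 41.5 and 34.9 CPM in PBS. PBS lay above both nanoparticle groups, which overlapped each other, and the log2 fold change was -0.88 ± 0.11 for MRC+L (adjusted p = 0.000167) and -0.84 ± 0.11 for MRC (adjusted p = 0.000298). The other 4 called genes had log2 fold changes between -0.80 (Pold1) and -0.63 (Pola2) for MRC+L, and between -0.64 (Prim2) and -0.56 (Pold1) for MRC. Prim1 lost its MRC call without MRC replicate 1.

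The catalytic subunits Pola1 and Pole have long transcripts, and both were low in PBS replicate 2. Pola1, the catalytic subunit of polymerase alpha, averaged 73.2 ± 3.25 CPM in MRC+L and 73.0 ± 2.84 CPM in MRC, and its PBS libraries had 71.6, 39.0 and 82.8 CPM. Pole, the catalytic subunit of polymerase epsilon, averaged 116 ± 2.58 CPM in MRC+L and 109 ± 15.8 CPM in MRC, and its PBS libraries had 163, 96.2 and 178 CPM. In each case the second PBS library was the lowest of the 3. Without PBS replicate 2, Pole was called lower in both groups, with log2 fold changes of -0.55 for MRC+L and -0.66 for MRC, and Pola1 was still not called, with -0.08 for MRC+L and -0.09 for MRC. Pold2, the accessory subunit of polymerase delta, averaged 75.2 ± 1.27 CPM in MRC+L, 83.0 ± 0.496 CPM in MRC and 88.6 ± 18.4 CPM in PBS, and its fold change for MRC+L went from a called -0.37 without PBS replicate 3 to -0.07 without PBS replicate 2.

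The clamp and its loader were lower too. Pcna (chr2:132091082-132095234), the sliding clamp that tethers polymerases to DNA, had 275, 297 and 292 CPM in MRC+L, 326, 309 and 340.4 CPM in MRC and 399.8, 502 and 361 CPM in PBS. The 3 groups did not overlap, with MRC+L lowest and PBS highest. Its log2 fold change was -0.55 ± 0.13 for MRC+L (adjusted p = 0.0065) and -0.37 ± 0.13 for MRC (adjusted p = 0.0437). Its MRC value was -0.23 without PBS replicate 2. The MRC call was lost without PBS replicate 1 or any one MRC or MRC+L library, with adjusted p between 0.00945 and 0.138 over the single omissions. Pcna has 2 named pseudogenes in the annotation, and reads with several matches were not counted.

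Rfc5 (chr5:117516168-117527112), a small subunit of the clamp loader RFC, was called with a wide gap to PBS. It had 35.8, 39.4 and 40.4 CPM in MRC+L, 38.2, 42.6 and 41.0 CPM in MRC and 80.2, 85.7 and 70.6 CPM in PBS, and PBS did not overlap either group. The log2 fold change was -1.03 ± 0.11 for MRC+L (adjusted p = 5.52e-05) and -0.96 ± 0.11 for MRC (adjusted p = 0.000118). Rfc2 fell by more, 2.73-fold in MRC+L and 2.32-fold in MRC, with 97.2, 152 and 80.9 CPM in the PBS libraries and means of 40.4 CPM in MRC+L and 47.4 CPM in MRC. Its log2 fold change without PBS replicate 2 was -1.14 for MRC+L and -0.92 for MRC. Rfc3 fell 1.93-fold in MRC+L and 1.69-fold in MRC. Rfc4 was called for MRC+L (-0.77 ± 0.22, a call lost without MRC+L replicate 1) and not for MRC (-0.55 ± 0.22, called without PBS replicate 3). The values for Rfc4 were -0.46 for MRC+L and -0.24 for MRC without PBS replicate 2. The exons of Rfc2, Rfc4 and Rfc5 share 15.1%, 12.7% and 10.7% of their bases with a gene on the other strand.

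Rpa1 and Rpa2, subunits of the protein that coats single-stranded DNA, were called in neither comparison. Rpa1 averaged 159 ± 2.66 CPM in MRC+L, 165 ± 11.8 CPM in MRC and 182 ± 6.62 CPM in PBS, with log2 fold changes of -0.20 ± 0.09 for MRC+L and -0.15 ± 0.09 for MRC. Rpa2 averaged 46.3 ± 2.13 CPM in MRC+L, 49.9 ± 2.29 CPM in MRC and 56.5 ± 14.5 CPM in PBS, with log2 fold changes of -0.29 ± 0.16 for MRC+L and -0.18 ± 0.16 for MRC. For MRC+L, Rpa2 was called lower without PBS replicate 3 (-0.43) and was at -0.06 without PBS replicate 2.

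All 5 genes of nucleotide supply fell in both groups, the median change being -0.95 for MRC+L and -0.80 for MRC on the log2 scale. Tk1 (chr11:117706352-117716918), the thymidine kinase that salvages thymidine in S phase, fell most of all 44 genes. It had 39.1, 34.9 and 35.7 CPM in MRC+L, 41.9, 43.8 and 53.3 CPM in MRC and 167, 230.2 and 153 CPM in PBS. The 3 groups did not overlap, and the gap to PBS was far wider than that between MRC+L and MRC. Tk1 was 5.01-fold lower in MRC+L (log2 fold change -2.32 ± 0.17, adjusted p = 5.32e-06) and 3.95-fold lower in MRC (-1.98 ± 0.17, adjusted p = 1.92e-05).

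Rrm2 (chr12:24758240-24764145), the small subunit of ribonucleotide reductase whose supply limits the enzyme in S phase, had 123, 132 and 132 CPM in MRC+L, 146, 149 and 155 CPM in MRC and 256, 236 and 253 CPM in PBS. These groups were separate as well. Against PBS the log2 fold change was -0.95 ± 0.09 for MRC+L (adjusted p = 3.49e-05) and -0.73 ± 0.09 for MRC (adjusted p = 0.000232). Rrm1, the large subunit of the same enzyme, averaged 214 ± 1.54 CPM in MRC+L, 239 ± 10.7 CPM in MRC and 348 ± 24.7 CPM in PBS, and fell 1.63-fold in MRC+L and 1.46-fold in MRC. Tyms, the thymidylate synthase, averaged 44.4 ± 2.22 CPM in MRC+L, 46.6 ± 4.93 CPM in MRC and 81.3 ± 11.1 CPM in PBS, and fell 1.83-fold in MRC+L and 1.74-fold in MRC. Dut, which removes dUTP, averaged 57.7 ± 8.92 CPM in MRC+L and 62.6 ± 6.16 CPM in MRC, and had 95.3, 177 and 77.2 CPM in the PBS libraries. Its log2 fold change was -1.01 ± 0.27 for MRC+L and -0.89 ± 0.27 for MRC, with the largest standard error of the 44 genes. Without PBS replicate 2 the fold change of Dut was -0.58 for MRC+L and -0.47 for MRC, and its MRC call was lost without MRC replicate 1 or 2 and its MRC+L call without MRC+L replicate 1.

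Lagging-strand fragments are trimmed by Fen1 and sealed by the ligase Lig1. Lig1 (chr7:13011239-13045350) had 82.9, 82.1 and 92.6 CPM in MRC+L, 95.0, 106 and 99.4 CPM in MRC and 194, 209 and 199 CPM in PBS, so the 3 groups did not overlap. Relative to PBS, the log2 fold change was -1.22 ± 0.10 for MRC+L (adjusted p = 1.09e-05) and -1.0 ± 0.10 for MRC (adjusted p = 5.02e-05). Fen1 (chr19:10176496-10181533) had only 7.02, 8.77 and 7.63 CPM in MRC+L, 9.94, 9.08 and 8.03 CPM in MRC and 8.67, 4.06 and 7.66 CPM in PBS. Its groups overlapped and it was not called, at 0.20 ± 0.25 for MRC+L and 0.40 ± 0.25 for MRC. Of its exon bases 84.2% are shared with Gm10143 and Tmem258 on the other strand, so its level is uncertain.

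The 3 genes for chromatin behind the fork all fell in both groups. Uhrf1 (chr17:56610321-56630486), which recognises hemimethylated DNA and brings in the maintenance methyltransferase, had 147, 143 and 142 CPM in MRC+L, 151, 178 and 163 CPM in MRC and 407, 308 and 399.8 CPM in PBS. Its 3 groups were separate, with MRC+L lowest and PBS highest. Uhrf1 was 2.58-fold lower in MRC+L (log2 fold change -1.37 ± 0.13, adjusted p = 2.77e-05) and 2.27-fold lower in MRC (-1.18 ± 0.13, adjusted p = 9.2e-05). Chaf1b (chr16:93680789-93703003), a subunit of the histone chaperone CAF-1, had 33.2, 32.1 and 29.8 CPM in MRC+L, 39.6, 39.0 and 40.9 CPM in MRC and 60.8, 78.1 and 52.3 CPM in PBS. The groups again followed one another without overlap, and the log2 fold change was -1.01 ± 0.14 for MRC+L and -0.68 ± 0.14 for MRC. Chaf1a, another CAF-1 subunit, fell 1.57-fold in MRC+L and 1.41-fold in MRC, with 52.5% of its exon bases shared with Ubxn6 on the other strand.

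The G1/S regulators did not move as one. E2f1 (chr2:154401327-154411812), an activator E2F, had 26.95, 25.5 and 29.8 CPM in MRC+L, 28.1, 31.7 and 29.2 CPM in MRC and 53.4, 53.6 and 53.3 CPM in PBS. The PBS libraries differed by under 1 CPM and lay well above the other 6, while MRC+L and MRC overlapped. The log2 fold change was -0.96 ± 0.10 for MRC+L (adjusted p = 6.16e-05) and -0.85 ± 0.10 for MRC (adjusted p = 0.000177).

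The cyclin E genes encode the partners of Cdk2 at the G1/S border. Ccne1 (chr7:37797409-37806959) had 11.7, 11.2 and 13.3 CPM in MRC+L, 15.4, 13.6 and 16.4 CPM in MRC and 16.9, 18.8 and 13.8 CPM in PBS. MRC+L lay below both other groups, which overlapped, and the log2 fold change was -0.45 ± 0.15 for MRC+L (adjusted p = 0.0326) and -0.12 ± 0.15 for MRC (adjusted p = 0.554). Ccne2 (chr4:11191351-11204779) had 32.9, 41.3 and 35.6 CPM in MRC+L, 40.3, 31.3 and 36.5 CPM in MRC and 29.1, 26.6 and 29.4 CPM in PBS. Every nanoparticle library lay above every PBS library, and the log2 fold change was 0.37 ± 0.13 for MRC+L (adjusted p = 0.0421) and 0.34 ± 0.13 for MRC (adjusted p = 0.0617). These calls sat near the threshold. For MRC+L against PBS, the Ccne1 call was lost without PBS replicate 1, MRC replicate 1, or MRC+L replicate 1 or 2, and the Ccne2 call without PBS replicate 1, MRC replicate 3, or MRC+L replicate 2 or 3, while Ccne2 was called higher for MRC without PBS replicate 2 or without MRC replicate 2. Ccne2 shares 17.4% of its exon bases with Ints8 on the other strand.

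The addition of light to the particles gave small differences in these genes. MRC+L against MRC was tested in the 6 libraries of those groups, where 12955 genes passed the filter. Of the 44 replication genes 3 fell, namely Tk1, Chaf1b and Rrm2, and 0 rose, where 1.91% of all tested genes fell and 3.13% rose. The log2 fold change was -0.34 ± 0.09 for Tk1 (adjusted p = 0.0345), -0.33 ± 0.08 for Chaf1b (adjusted p = 0.0258) and -0.22 ± 0.06 for Rrm2 (adjusted p = 0.0486), all in edgeR's quasi-likelihood test. An unadjusted p under 0.05 was reached by 17 of the 44, in either direction, and by 21% of all tested genes. DESeq2 called 4 of the 44 lower and 0 higher, and 763 of all 12955 genes in either direction. For Tk1, Chaf1b and Rrm2 the 3 MRC+L libraries lay below the 3 MRC libraries. The calls depended on single libraries: 0 of the 3 remained without MRC replicate 3, without MRC+L replicate 2 or without MRC+L replicate 3, the Tk1 value was -0.22 without MRC replicate 3, and in the edgeR fit of all 9 libraries 0 of 13439 genes passed (unadjusted p under 0.05 in 573 genes, 3 of them among the 44). Calls over all tested genes, in either direction, were 654 in the full fit. In these omissions they were 193, 137 and 297, in that order.

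The direction was lower for 39 of the 44 genes, against 51.2% of all tested genes, with a median log2 fold change of -0.12 beside -0.01 over all tested genes. No replication gene was called at least 2-fold lower (0 of 44, and 0.0309% of all tested genes). In 16 genes every MRC+L library lay below every MRC library (12.9% of all tested genes), and in 0 every one lay above (12%). The 5 genes with a value above 0 were Pole (0.10), Gins3 (0.04), Mcm10 (0.03), Ccne2 (0.02) and Pola1 (0.01), and none of these was called. Among the genes that fell against PBS in MRC+L and were not called in MRC, Ccne1 differed most between the nanoparticle groups (-0.33 ± 0.12, adjusted p = 0.13). Mcm7 differed by -0.20 ± 0.06 (adjusted p = 0.0738), and Cdt1, Gins1, Gins4 and Rfc4 by -0.22 to -0.09, none of them past the threshold.

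**Figure D4:**
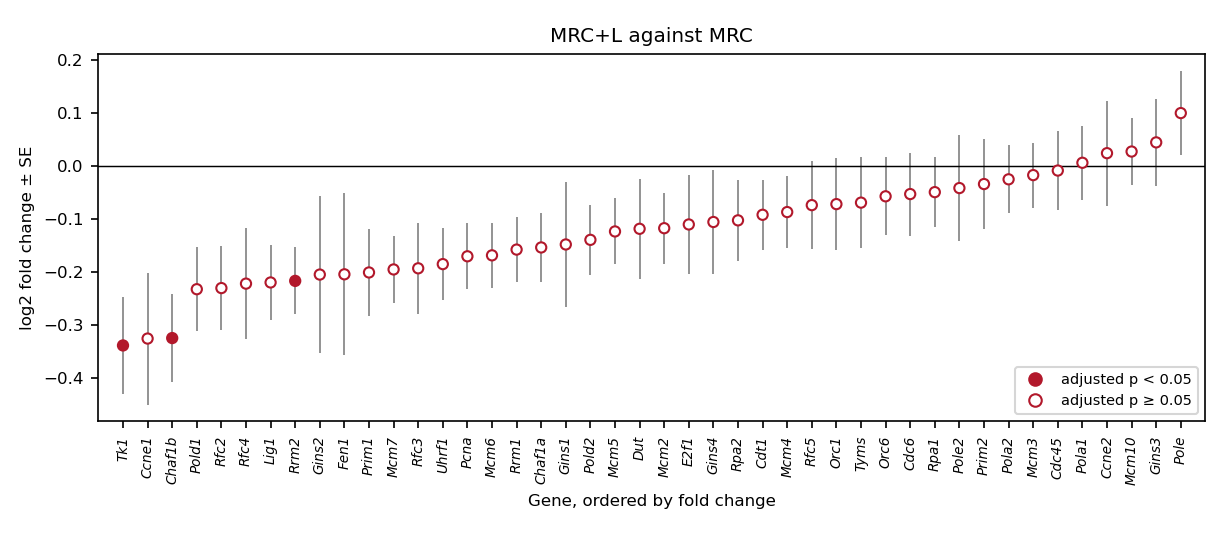
Log2 fold change of MRC+L against MRC with its standard error (6 libraries) for the 44 replication genes, ordered by value, with filled points for an adjusted p under 0.05. Tk1, Chaf1b and Rrm2 are filled, at -0.34, -0.33 and -0.22, and 5 genes lie above 0.

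PBS replicate 2 differed from the other PBS libraries in both directions. Relative to the mean of PBS replicates 1 and 3, its log2 CPM lay between -1.01 and 1.04 over the 44 genes, with a median of 0.18, where each MRC+L or MRC library, set against the other 2 of its group, lay within -0.50 and 0.36 for every gene. Dut, Rfc4 and Rfc2 were highest and Fen1, Pola1 and Pole lowest. Across the 44 genes, which share these libraries and are not independent, the deviation of PBS replicate 2 had a Pearson r of -0.49 with log2 exon length. The MRC+L and MRC libraries, compared with their own group in the same way, had r between -0.41 and 0.50. Over these genes the size of the r thus does not set PBS replicate 2 apart, though its deviations were larger. PBS replicates 1 and 3 had r of 0.35 and 0.54. Each was compared with a mean that contains PBS replicate 2, so these values are no separate reference. With a trend with exon length removed from every library, 35 genes were lower and 2 higher in MRC+L, of which 33 and 2 were calls shared with the fit without this step. Gins4 and Ccne1 lost their calls there, and Pole and Rpa1 were called lower. In MRC 31 were lower and 2 higher, with all 30 calls shared and Mcm7, Pole and Ccne2 added.

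**Figure D5:**
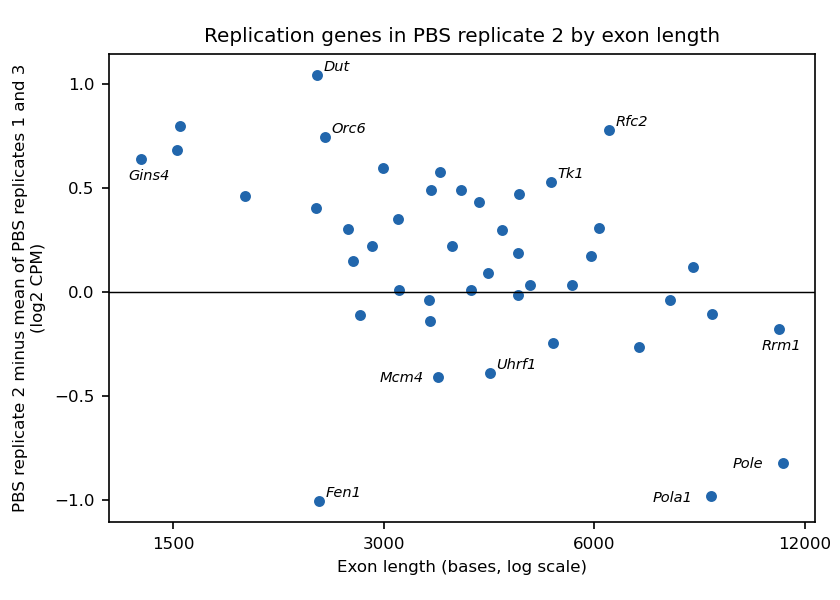
PBS replicate 2 minus the mean of PBS replicates 1 and 3, in log2 CPM, against exon length in bases (log axis), for the 44 replication genes (points). Exon length covers all annotated exon bases of a gene. Short genes such as Dut and Orc6 lie above 0, and the long Pola1 and Pole lie at -0.98 and -0.83. Rrm1, with 11012 exon bases, lies at -0.18. Fen1 is low despite its short exons, and Rfc2 is high at 0.78 with 6303 exon bases.

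The rest of the pathway was read from 6 further lists with 86 genes, of which 83 were tested. In MRC+L cells 40 of these fell and 10 rose, and in MRC cells 32 fell and 9 rose, and their median change was -0.33 for MRC+L and -0.30 for MRC on the log2 scale. The shares of all tested genes to set beside these and the next counts are 24.5% lower and 21.8% higher in MRC+L, and 19.8% lower and 17.8% higher in MRC. The counts below without PBS replicate 2 stand beside more calls over all tested genes. These were 7659 of 13747 for MRC+L and 6962 of 13747 for MRC, in either direction. Other omissions gave fewer, down to 4702 of 13802 for MRC+L (without MRC+L replicate 2). For MRC the lowest was 3562 of 13858 (without MRC replicate 1). Among 14 other licensing and firing genes 5 fell and 3 rose in MRC+L, and 4 fell and 3 rose in MRC. The numbers that fell rested on single libraries. They were 8 in each comparison without PBS replicate 2, as low as 2 in MRC+L (without PBS replicate 1 or MRC+L replicate 3, and 3 without PBS replicate 3 or MRC+L replicate 1 or 2) and as low as 1 in MRC (without MRC replicate 1 or 2, and 2 without PBS replicate 1). Orc2, another subunit of the origin recognition complex, rose in both, with 129, 149 and 139 CPM in MRC+L, 156, 129 and 131 CPM in MRC and 74.4, 64.7 and 76.5 CPM in PBS (log2 fold change 0.95 ± 0.12 for MRC+L and 0.95 ± 0.12 for MRC). Recql4, a helicase needed for origin firing, rose as well (0.76 ± 0.11 for MRC+L and 0.84 ± 0.11 for MRC). Donson, which takes part in assembling the helicase, fell (-0.84 ± 0.13 for MRC+L and -0.93 ± 0.13 for MRC), and so did Gmnn, the inhibitor of Cdt1 (-1.06 ± 0.28 and -0.89 ± 0.28). Gmnn had 23.6, 27.6 and 26.7 CPM in MRC+L, 27.4, 26.6 and 33.7 CPM in MRC and 45.6, 82.9 and 33.7 CPM in PBS, so that the highest MRC library met the lowest PBS library. Without PBS replicate 2 its log2 fold change was -0.62 for MRC+L and -0.45 for MRC, and its MRC call was lost without MRC replicate 1 or 2.

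Of 19 other fork genes 12 fell and 2 rose in MRC+L, and 9 fell and 1 rose in MRC. Leaving out 1 library gave 8 to 14 lower and 0 to 2 higher in MRC+L (8 lower without MRC+L replicate 1 or 3, and 0 higher without PBS replicate 1 or MRC+L replicate 2 or 3), and 5 to 12 lower and 0 to 2 higher in MRC (5 lower without MRC replicate 1 and 6 without MRC replicate 2, and 0 higher in all but the omissions of PBS replicates 2 and 3). Dscc1 and Chtf18, subunits of the alternative clamp loader, both fell, with log2 fold changes of -1.49 ± 0.20 and -1.39 ± 0.14 in MRC+L, and of -1.28 ± 0.20 and -1.07 ± 0.14 in MRC. Top2a, the topoisomerase that untangles daughter strands, had 792, 764 and 762 CPM in MRC+L, 869, 851 and 886 CPM in MRC and 1529.7, 1145 and 1660.5 CPM in PBS. It fell in both (log2 fold change -0.90 ± 0.14 for MRC+L and -0.73 ± 0.14 for MRC). Of 14 further genes of nucleotide supply 5 fell and 2 rose in each comparison, and 3 fell in MRC without MRC replicate 1 or 2. Samhd1, which degrades deoxynucleotides, fell (-1.33 ± 0.10 for MRC+L and -1.13 ± 0.10 for MRC), and Ctps, which makes CTP, rose (0.74 ± 0.10 and 0.76 ± 0.10). Of 10 genes of histone supply and maintenance methylation 6 fell in each comparison, and 1 rose in MRC. That gene was Cdca7, named after its value was seen (log2 fold change 0.19 ± 0.10 for MRC+L, not called, and 0.29 ± 0.10 for MRC, adjusted p = 0.0498), and it was called without PBS replicate 2 and in no other omission of 1 library. The number that fell in MRC was 3 without MRC replicate 2 and 4 without MRC replicate 1 or 3. Slbp, which binds histone mRNA, fell in both (log2 fold change -1.04 ± 0.10 for MRC+L and -1.04 ± 0.10 for MRC).

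Of 12 genes of the E2F and RB family besides E2f1, 4 fell in MRC+L and 2 in MRC, beside 24.5% and 19.8% of all tested genes. E2f8, a repressor E2F, had 53.5, 51.5 and 48.5 CPM in MRC+L, 59.8, 60.9 and 59.5 CPM in MRC and 146, 94.9 and 151 CPM in PBS, a log2 fold change of -1.35 ± 0.16 for MRC+L and -1.12 ± 0.16 for MRC. Rbl2, a relative of the retinoblastoma protein, fell too (-1.0 ± 0.19 and -0.98 ± 0.19). The number that fell was 6 in each comparison without PBS replicate 2, and 1 rose.

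Among 17 G1/S cyclins, kinases and inhibitors, 14 were tested, of which 8 fell and 3 rose in MRC+L, and 6 fell and 2 rose in MRC (10 fell without PBS replicate 2). Ccnd1, the cyclin D that relays growth signals to Cdk4 and Cdk6, had 215, 191 and 190.2 CPM in MRC+L, 239, 279 and 297 CPM in MRC and 1138, 657 and 1185 CPM in PBS. It was 4.998-fold lower in MRC+L (adjusted p = 2.3e-05) and 3.65-fold lower in MRC (adjusted p = 0.000106), and it was also lower in MRC+L than in MRC (log2 fold change -0.45 ± 0.08, adjusted p = 0.00138, and 0.988 in the fit of all 9 libraries). Ccnd3 was 3.14-fold lower in MRC+L and 2.55-fold lower in MRC. Myc, a growth-promoting transcription factor, moved the other way. It had 854, 892 and 915 CPM in MRC+L, 825, 798 and 746 CPM in MRC and 356, 399.8 and 329 CPM in PBS, and was 2.45-fold higher in MRC+L (adjusted p = 1.47e-05) and 2.18-fold higher in MRC (adjusted p = 4.68e-05). Cdkn1a, the kinase inhibitor p21, was called higher for MRC+L against PBS (0.34 ± 0.11, adjusted p = 0.0326) and not for MRC (0.11 ± 0.11, adjusted p = 0.483), and the call was lost without PBS replicate 1 or 3, MRC replicate 3, or MRC+L replicate 1 or 2. Cdkn1b, the inhibitor p27, was called in neither (0.00 ± 0.13 and -0.11 ± 0.13), and without PBS replicate 2 it was called lower for MRC (-0.24).

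Genes of the next phase were lower as well. Of 30 genes of G2 and mitosis 25 fell in MRC+L and 24 fell in MRC, beside 24.5% and 19.8% of all tested genes, with median log2 fold changes of -0.77 for MRC+L and -0.65 for MRC. Mki67, the proliferation marker Ki-67, had 566, 516 and 492 CPM in MRC+L, 491, 542 and 497 CPM in MRC and 879.7, 586 and 1126 CPM in PBS, and fell in both (log2 fold change -0.72 ± 0.20 for MRC+L and -0.76 ± 0.20 for MRC). Its MRC+L call was lost without MRC+L replicate 2 or 3, and its MRC call without MRC replicate 1. In MRC+L against MRC 11 of the 30 were called lower (0 without MRC replicate 3 or MRC+L replicate 2, 2 without MRC+L replicate 3, and 4 without MRC+L replicate 1), against 3 of the 44 replication genes, and the difference between the lists was not tested. Of all tested genes 1.91% were called lower in this comparison. Calls over all tested genes, in either direction, were 654 with no library left out. They were 193 without MRC replicate 3, 137 without MRC+L replicate 2, 297 without MRC+L replicate 3 and 382 without MRC+L replicate 1.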

How the data were processed

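RNA sequencing covered 9 libraries of 4T1 cells, 3 each of MRC+L, MRC and PBS. Per the labels' protocols, RNA was taken with Trizol and libraries were built with a TruSeq RNA kit from Illumina. The authors deposited raw counts of read pairs, 1 table per library with 55416 gene IDs. Per the file headers, featureCounts 2.0.1 counted paired reads over the exons of Ensembl release 104 (GRCm39). It was run without a strand option and left out reads with several matches, so genes that share exon bases or have near-identical copies are uncertain. For the aligner, the name is not given in the sources used here.

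Symbols were matched by gene ID through GENCODE M21, which gave a symbol to 94.0% of the IDs. Exon overlap was computed from the exon coordinates in the files. Promoter windows came from RefSeq on GRCm38.p6, with no coordinates moved between builds. Pairs of replicates differed by more than counting noise (chi-square per degree of freedom from 3.63 to 142), so none was counted as 1 sample.

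Genes passed edgeR's filter at a count minimum of 10 and a total of at least 15. They were tested with edgeR's quasi-likelihood test with TMM scaling in R 4.3.3 (edgeR 4.0.16), with Benjamini-Hochberg adjustment over all genes tested and a threshold of 0.05. All 9 libraries entered the comparisons with PBS (13439 genes) and 6 entered MRC+L against MRC (12955 genes). Each fit used 1 estimate of spread per gene for all its groups, so the larger spread of PBS was averaged with the others. The p-values against PBS may thus be too small. The fit of the 2 groups alone called 4895 of 13131 genes for MRC+L and 3706 of 12970 for MRC, against 6212 and 5050 of 13439 here. MRC+L against MRC had 654 calls in the 6 libraries and 0 in the fit of all 9. The code was tested on simulated counts. Alternatives were DESeq2 1.42.0, limma 3.58.1 with library weights, another scaling, no filter, a replicate block, removal of a length trend, other sets of libraries and the omission of each library. Figures were made with Python 3.11.15, pandas 2.3.3 and matplotlib 3.10.9. A count of 0 allows up to 3 counts, or 0.150 to 0.200 CPM, for counting error only. No set of genes was tested as a set, and p-values were not adjusted over the list of 44.

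The 44 members, the further lists and the tests were chosen with earlier results of these data known. Values in every library are given for the gene of each role with the smallest adjusted p in MRC against PBS, for genes called in MRC+L against MRC, for the 2 genes with the largest fold in each direction against PBS, and for Mcm2 to Mcm7, E2f1, Ccne1, Ccne2 and Pcna. Of each further list up to 3 genes with the smallest adjusted p were named, besides Cdkn1a, Cdkn1b, Ccnd1, Myc, Gmnn, Top2a and Mki67, and not all of these are described; 1 further gene that the rule named is not reported here. Other members are named because all 44 are accounted for.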

Additional observations from a re-analysis of the deposited data

How the results depend on the processing

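Over 16 alternatives for each comparison with PBS, no called gene among the 44 changed sign, and 27 of 37 calls for MRC+L and 23 of 30 for MRC stayed in every one. Leaving out 1 library at a time gave 27 to 37 lower and 1 to 2 higher for MRC+L, and 23 to 33 lower and 1 to 2 higher for MRC. Calls over all tested genes, in either direction, moved in the same omissions from 4702 to 7659 for MRC+L. For MRC they moved from 3562 to 6962. For MRC+L against MRC, 0 of 3 calls stayed in every alternative. Single omissions gave 0 to 4 lower and 0 to 1 higher there (the 1 without MRC replicate 2), beside 137 to 1015 calls over all tested genes. The fit of all 9 libraries gave 0 lower for MRC+L against MRC. Genes called higher numbered 1 for MRC+L against PBS with no filter, with the replicate block and in the fit of the 2 groups alone, and 2 for MRC against PBS with the length trend removed, by DESeq2 and by limma voom.

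With the replicate number as a block, 33 genes were lower and 1 higher for MRC+L, 26 lower and 1 higher for MRC, and 3 lower for MRC+L against MRC. Calls lost under the block were those of Gins4, Ccne1 and Ccne2 for MRC+L and of Orc6, Cdc6 and Pcna for MRC. The fit of the 2 groups alone also lost Orc6, Cdt1 and Gins1 for MRC+L and Dut for MRC, and the fit with no filter lost Mcm10, Ccne1 and Ccne2 for MRC+L and Cdc6, Mcm10 and Pcna for MRC. The numbers were not used to pair libraries, since the deviations of libraries with the same number correlated between -0.185 and 0.0385.

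Among the 83 other pathway genes tested, single omissions gave 28 to 49 lower for MRC+L and 21 to 46 for MRC, and 1 to 6 lower and 0 to 1 higher for MRC+L against MRC. These ranges stand beside the calls over all tested genes given above for the same omissions. By limma voom 49 were lower and 15 higher for MRC, 16 were higher for MRC+L, and 6 were lower and 1 higher for MRC+L against MRC. That fit called 9856 of 13439 genes for MRC+L and 8851 for MRC. Its weights were 7.30, 0.0784 and 0.387 for PBS replicates 1, 2 and 3, so its comparisons with PBS rest mostly on 1 PBS library. For MRC+L against MRC, DESeq2 gave 6 lower and 1 higher, removal of the length trend 5 lower and 1 higher, and the fit of all 9 libraries 0 lower. For MRC against PBS, the fit of the 2 groups alone gave 20 lower. The cause of these shifts was not tested.

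Signs changed only among genes that were not called. Orc1 was at -0.058 for MRC+L and -0.019 for MRC by limma voom, and between -0.011 and 0.080 for MRC+L over single omissions. Over single omissions Pola1 lay between -0.077 and 0.40 for MRC+L and between -0.086 and 0.40 for MRC, Pold2 between -0.23 and 0.067 for MRC, Rpa2 between -0.32 and 0.037 for MRC, and Fen1 between -0.072 and 0.41 for MRC+L. Each low end of Pola1 and Fen1 and each high end of Pold2 and Rpa2 came without PBS replicate 2. With the length trend removed Pold2 was at 0.018 for MRC+L and 0.092 for MRC, and by limma voom Fen1 was at -0.13 for MRC+L. Cdkn1b lay between -0.13 and 0.12 for MRC+L and between -0.24 and 0.0068 for MRC over single omissions, and at -0.047 for MRC+L by limma voom.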
